A study of Homo sapiens with 6 samples.

Results

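The genes described here are 10 immediate early genes: FOS, FOSB, JUN, JUNB, JUND and ATF3, which encode subunits of the AP-1 transcription factors or their close relative, the transcription factors EGR1, KLF6 and IER2, and the phosphatase DUSP1. They were chosen by name, and a probe set was taken as a member's when the platform annotation gave it exactly 1 gene with that gene's Entrez identifier. This found all 10 genes among 19777 genes named on the array, through 26 of 41091 probe sets that name 1 gene. The cells were JJN3, an established human myeloma line, and total RNA was hybridised to 6 Affymetrix arrays of the type U133 Plus 2.0. Of these, 3 hold cells virally transduced with a short hairpin RNA (shRNA) against CKS1B, a cofactor of cyclin-dependent kinases and of the SCF-SKP2 ubiquitin ligase. The other 3 hold cells with a scrambled shRNA without a specific target, so every array comes from transduced cells of the same line. The labels name the arrays of each group A, B and C, add an unexplained word to the title of scrambled array B, and give no stimulus, no time after transduction and no number of hairpins or of separate cultures. The p-values below therefore speak only of variation among these 6 arrays, some of which may be technical, and the number of arrays limits the precision. In RNA from bulk cells, fewer cells expressing a gene and less RNA per cell cannot be told apart.

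Immediate early genes are transcribed within minutes of a growth, stress or cytokine signal without new protein synthesis, and their messenger RNAs are short-lived. Kinases of the ERK, JNK and p38 families act on factors already bound at the promoters, such as SRF with its ELK partners at CArG boxes and CREB or ATF proteins at cyclic AMP response elements (CRE). FOS proteins need a JUN partner to bind DNA, and the resulting AP-1 dimer, EGR1 and KLF6 then act on later genes, while DUSP1 dephosphorylates the kinases and closes the loop.

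Values are MAS5 intensities on a linear scale, and each mean carries its SD (n = 3 arrays per group). A difference is CKS1B shRNA minus scrambled on the log2(value + 16) scale, which understates changes of dim genes. CKS1B, the target, read 7294 to 8441 on the scrambled arrays and 269 to 828 on the CKS1B shRNA arrays, so that the target was low on every array labelled with its shRNA. Its log2 difference was -4.02 with 6 arrays (adjusted p = 0.246 in limma) and -3.63 without CKS1B shRNA array B (adjusted p = 0.00135). This array was unlike the other 5. Its correlations with the other arrays over all probe sets were 0.577 to 0.610, and its ratio of the 3' to the 5' actin control probe set was 12.4, against 2.93 on CKS1B shRNA array C and 1.05 to 1.66 on the other 4. Scrambled array C differed from the other scrambled arrays in its median value, 201.6 against 121.8 and 129.9. Bright probe sets tended to read low on CKS1B shRNA array B, whose median value was 334. Of the 8407 probe sets with a scrambled mean of at least 1000, 21.2% were below 0.2 of that mean on this array. The differences of the 10 genes, by their brightest probe sets, are therefore given with all 6 arrays and again without CKS1B shRNA array B. For other genes and lists, values without that array are given only in part. Of 9 plasma cell markers 8 were bright enough to be tested (IRF4 read 7783 to 10257 on the scrambled arrays) and SLAMF7 was not. With 6 arrays 2 read higher and 6 lower, as did 2 and 6 of the 8 tested among 12 markers of other cells, and 0 were called. MZB1, a plasma cell chaperone, read 2403 to 3429 on the scrambled arrays and 442.5 to 2080 with the CKS1B shRNA, and the epithelial marker EPCAM 1541.5 to 2188 and 438 to 1307. In both all 3 CKS1B shRNA arrays were below, by -1.43 and -1.14 (adjusted p = 0.933 for each in limma). Without CKS1B shRNA array B the differences were -0.83 and -0.67. Groups did not overlap in 1 of the 8 tested in each list, both lower (6.41% of all genes). The 2 plasma cell markers that read higher were PRDM1 (0.39) and SDC1 (0.33), and the epithelial marker KRT8 differed by -0.0018. The part of MZB1 and EPCAM in the values of the 10 genes was not tested. The B cell marker MS4A1 read 5426 to 7996 on the scrambled arrays.

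None of the 10 genes passed the test between the groups, with or without CKS1B shRNA array B. Their directions changed with that array: with 6 arrays 4 read higher and 6 lower (44.3% of all genes read higher), and without it 8 read higher and 2 lower (46.7%). By their brightest probe sets, EGR1, DUSP1 and JUNB were above every scrambled array on CKS1B shRNA arrays A and C (13.7% of all genes). ATF3 was below every one (14.6% of all genes), and FOS, FOSB, JUN, JUND, IER2 and KLF6 overlapped between the groups. Some dimmer probe sets of EGR1, DUSP1 and ATF3 overlapped as well. The promoters of 6 members are shown to make the regulatory letters visible: EGR1, DUSP1, JUNB and ATF3, whose groups separated on those arrays, and FOS and JUN as the prototypes of AP-1. The sequences are from RefSeq on GRCh38.p14 and run from 250 bases before to 50 bases after the transcript start. EGR1 lies at chr5:138465229-138465528, JUNB at chr19:12791236-12791535 and FOS at chr14:75278578-75278877, all on the plus strand. DUSP1 lies at chr5:172771146-172771445 and JUN at chr1:58783998-58784297, both on the minus strand. The ATF3 sequence is that of the upstream of its 2 listed starts, at chr1:212565157-212565456 on the plus strand, and which start its probe sets report on was not analysed here. Capitals mark CArG boxes and the letters TGACGT, TGACGTCA or TGACATCA on either strand, and JUNB has none of these.
EGR1: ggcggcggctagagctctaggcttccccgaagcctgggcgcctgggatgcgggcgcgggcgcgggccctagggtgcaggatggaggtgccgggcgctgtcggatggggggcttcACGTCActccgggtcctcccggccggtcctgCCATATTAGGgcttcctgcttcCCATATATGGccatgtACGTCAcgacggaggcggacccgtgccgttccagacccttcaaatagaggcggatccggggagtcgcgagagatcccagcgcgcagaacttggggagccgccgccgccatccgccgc
DUSP1: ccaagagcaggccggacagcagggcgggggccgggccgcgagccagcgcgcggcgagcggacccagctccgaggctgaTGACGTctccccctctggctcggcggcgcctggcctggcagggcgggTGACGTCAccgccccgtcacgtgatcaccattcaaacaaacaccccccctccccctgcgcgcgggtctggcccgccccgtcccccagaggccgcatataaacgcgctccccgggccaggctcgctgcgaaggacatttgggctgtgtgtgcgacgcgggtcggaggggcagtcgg
JUNB: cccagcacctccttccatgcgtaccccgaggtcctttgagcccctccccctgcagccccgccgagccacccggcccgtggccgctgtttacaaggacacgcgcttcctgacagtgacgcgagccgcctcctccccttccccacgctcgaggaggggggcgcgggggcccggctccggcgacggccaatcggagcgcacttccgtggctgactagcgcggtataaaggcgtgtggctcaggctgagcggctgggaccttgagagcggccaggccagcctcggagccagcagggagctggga
FOS: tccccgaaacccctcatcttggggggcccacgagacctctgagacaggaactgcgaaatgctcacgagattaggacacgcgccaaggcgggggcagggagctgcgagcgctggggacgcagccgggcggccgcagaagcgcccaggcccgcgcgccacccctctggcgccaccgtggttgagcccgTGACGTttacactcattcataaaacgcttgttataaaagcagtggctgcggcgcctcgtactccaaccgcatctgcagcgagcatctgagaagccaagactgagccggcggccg
JUN: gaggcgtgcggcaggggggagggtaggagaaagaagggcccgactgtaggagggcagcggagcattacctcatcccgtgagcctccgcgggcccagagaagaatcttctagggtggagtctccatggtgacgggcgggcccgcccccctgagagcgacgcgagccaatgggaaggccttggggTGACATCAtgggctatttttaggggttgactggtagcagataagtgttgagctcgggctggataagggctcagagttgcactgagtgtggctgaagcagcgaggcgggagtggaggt
ATF3: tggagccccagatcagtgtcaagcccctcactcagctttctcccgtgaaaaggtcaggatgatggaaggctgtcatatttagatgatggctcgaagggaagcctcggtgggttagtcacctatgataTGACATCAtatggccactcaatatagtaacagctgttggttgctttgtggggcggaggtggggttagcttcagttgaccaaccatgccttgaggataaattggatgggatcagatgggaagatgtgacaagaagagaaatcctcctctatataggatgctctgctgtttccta

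Both strands of all 35116 listed promoters of this length were searched for the same letters. A CArG box was in 1.29% of them and in 1 of the 11 promoters of the 10 members, that of EGR1, which held 2 (bases -105 to -96 and -83 to -74 from the start). The CRE core TGACGT was in 7.98% of all promoters and in 5 of 11 of the members', those of FOS, FOSB, JUND, EGR1 and DUSP1. The full CRE TGACGTCA, which contains that core, was in 1.85% of all and in those of JUND and DUSP1, at -125 to -118 in the latter. The related TGACATCA was in 2.61% of all and in 3 of 11, those of JUN (-67 to -60), KLF6 and the upstream ATF3 start. The AP-1 site TGACTCA (4.95% of all promoters) and the EGR site GCGTGGGCG (0.795%) were in 0 of 11. These matches describe letters in a short window and are not measured binding, and a site outside the window is not seen.

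FOS, the prototype partner of JUN in AP-1, had 1 probe set. With the scrambled shRNA it read 9303 on array A, 5350 on B and 3843 on C, and with the CKS1B shRNA 11583, 6428 and 3453, in the order of letters used throughout. The spread within each group was wider than the gap between them, with array A highest and array C lowest in both. The log2 difference was 0.14 (SE 0.59), with a 95% interval of -1.22 to 1.502, and it was 0.13 without CKS1B shRNA array B. On array B FOS read 1.04 times its scrambled mean. FOSB, its close paralog, also had 1 probe set, reading 1076, 2309 and 463 on the scrambled arrays and 2001, 1979 and 215 with the CKS1B shRNA. The groups overlapped over nearly their whole range, and array C was again the lowest of each. Its log2 difference was -0.13 (SE 0.92), and -0.65 without array B, with an interval of -2.54 to 1.24.

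**Figure D1:**
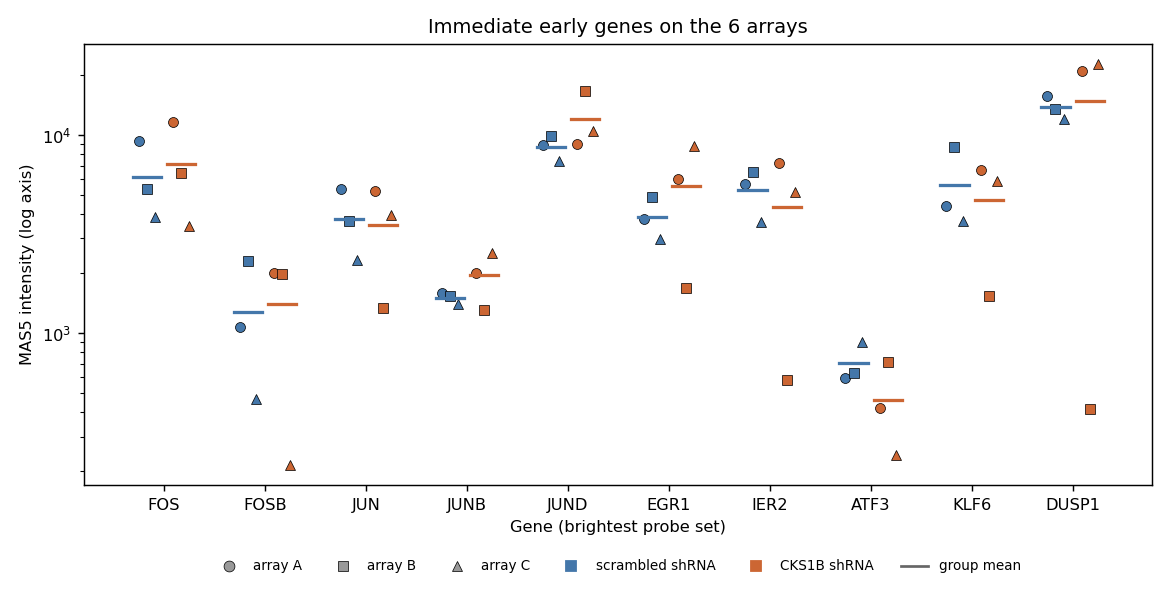
MAS5 intensity (log axis) of the brightest probe set of each of the 10 genes on the 6 arrays, with circles, squares and triangles for arrays A, B and C, blue for scrambled and orange for CKS1B shRNA, and lines at the group means. DUSP1 and IER2 on CKS1B shRNA array B, at 412 and 578, lie far below their other 5 arrays, and FOS and FOSB spread as much within as between groups.

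JUN, the partner through which FOS proteins bind DNA, had 4 probe sets that did not give the same picture. The brightest, 201464_x_at, read 5307, 3660 and 2324 on the scrambled arrays and 5232, 1344 and 3940 with the CKS1B shRNA. The groups overlapped, and only array B was below the scrambled range (log2 difference -0.23, SE 0.59, and 0.35 without array B). Its suffix marks a class of probe sets that can bind related transcripts. Probe set 213281_at read 416, 419 and 256 on the scrambled arrays and 593, 1063 and 752 with the CKS1B shRNA. Here all 3 CKS1B shRNA arrays were above all 3 scrambled ones, array B the most, with a log2 difference of 1.10 (95% interval 0.20 to 2.004) and 0.88 without array B. In the limma fit over all 54613 probe sets its unadjusted p was 0.0211 and its adjusted p 0.9999. Centred on the array median, the groups of this probe set overlapped with 6 arrays. Probe set 201466_s_at read 404 to 787 on the scrambled and 487 to 1362 on the CKS1B shRNA arrays, and 201465_s_at read 113 to 566 and 300.5 to 617, with overlapping groups for both. Of the 4 JUN probe sets, 3 thus had a difference above 0 with 6 arrays and all 4 without array B.

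JUNB, a JUN paralog with weaker activating function, varied least between the scrambled arrays of all 10 genes. It read 1586, 1537 and 1401 on the scrambled arrays, a mean of 1508 ± 95.5, and 2009, 1308.5 and 2538.5 with the CKS1B shRNA, a mean of 1952 ± 617. CKS1B shRNA arrays A and C were above every scrambled array and array B was below them. The log2 difference was 0.32 (SE 0.35). Without array B it was 0.58, or 1.49-fold, with a 95% interval of 0.08 to 1.08 and an adjusted p of 0.501 in limma.

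JUND, the JUN paralog most often described as constitutive, had 4 probe sets. The brightest, 203752_s_at, read 8929, 9892 and 7371 on the scrambled and 9048, 16565 and 10407 on the CKS1B shRNA arrays. The highest of these was array B, and the log2 difference of 0.42 (SE 0.49) became 0.16 without it. On the same array 214326_x_at read 22.4 against a scrambled mean of 636, and 203751_x_at read 58.9 against 462. The dim probe set 229117_s_at read 40.0 to 71.4 on the scrambled arrays and 91.9, 269.8 and 111.5 with the CKS1B shRNA, so that its groups did not overlap, but its mean lay under the brightness required for testing a gene. On array B the JUND probe sets therefore ranged from 0.0352 to 4.67 times their own scrambled means.

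ATF3, a stress-induced relative of the AP-1 proteins that often represses, was the member with the lowest difference without array B. Its brightest probe set, 1554980_a_at, read 591, 626 and 903 on the scrambled arrays, a mean of 706 ± 171, and 419, 717 and 242.5 with the CKS1B shRNA, a mean of 459 ± 240. CKS1B shRNA arrays A and C were below every scrambled array, while array B lay inside the scrambled range. The log2 difference was -0.71 (SE 0.44, 95% interval -1.71 to 0.30). Without array B it was -1.08, or 2.12-fold lower (interval -1.86 to -0.31), with an unadjusted p of 0.0112 and an adjusted p of 0.453 in limma. Probe set 1554420_at read 141 to 175 on the scrambled arrays and 124, 498 and 36.2 with the CKS1B shRNA. Probe set 202672_s_at read 343, 1464 and 396 on the scrambled arrays and 360, 318 and 272.5 with the CKS1B shRNA, so that its difference of -0.86 drew on the high value of scrambled array B. All 3 ATF3 probe sets had a difference below 0 with 6 arrays and without array B.

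EGR1, a zinc finger activator that is among the fastest genes of the ERK response, read higher on CKS1B shRNA arrays A and C in all 3 of its probe sets than the scrambled mean. Probe set 227404_s_at, the brightest, read 3770.5, 4841 and 2975 on the scrambled arrays, a mean of 3862 ± 936, and 5991, 1680 and 8835 with the CKS1B shRNA, a mean of 5502 ± 3602. Arrays A and C were above every scrambled array and array B was below every one. Probe set 201694_s_at had the same order, at 1788, 3181 and 1651 against 3520, 440 and 5715. In 201693_s_at, at 537, 680 and 444 against 904, 806 and 625, array B was not low, and array C lay inside the scrambled range. The log2 difference of the brightest probe set was 0.24 (SE 0.64, 95% interval -1.24 to 1.71) with 6 arrays. Without array B it was 0.94, or 1.92-fold (interval 0.34 to 1.54), with an unadjusted p of 0.00609 and an adjusted p of 0.453 in limma. The remaining EGR1 probe sets differed by 1.08 (201694_s_at) and 0.45 (201693_s_at) on the same 5 arrays.

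IER2, a short nuclear protein of the early response, had 1 probe set. It read 5625, 6473 and 3647 on the scrambled arrays and 7177, 578 and 5148 with the CKS1B shRNA. Array A was the highest of all 6, array C lay inside the scrambled range, and array B was at 0.110 of the mean with the scrambled shRNA. Its log2 difference was -0.87 (SE 0.89) and 0.25 without array B, with an interval of -0.38 to 0.88. KLF6, a zinc finger factor of the Krüppel-like family, had 5 probe sets. The brightest, 1555832_s_at, read 4371, 8679 and 3677 on the scrambled arrays and 6667, 1540 and 5882 with the CKS1B shRNA. The scrambled arrays already spanned 2.36-fold and enclosed CKS1B shRNA arrays A and C. Its log2 difference was -0.40 (SE 0.66) and 0.27 without array B. Across all 5 KLF6 probe sets the differences ranged from -0.83 to -0.03 with 6 arrays and from -0.76 to 0.27 without array B, and 0 of 5 had groups that did not overlap. On array B 224606_at was at 0.163 of its scrambled mean and 208960_s_at at 2.20 times.

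DUSP1, the nuclear phosphatase that inactivates p38, JNK and ERK, showed the largest shift on array B. Its brightest probe set, 201041_s_at, read 15792, 13534 and 12016 on the scrambled arrays, a mean of 13781 ± 1900. It read 21144, 412 and 22792 with the CKS1B shRNA. Arrays A and C were above every scrambled array, and array B was 33.4-fold below the scrambled mean. On the other 5 arrays 99.3% to 99.7% of probe sets read lower than this one, and on array B 58.2% did. The log2 difference was -1.21 (SE 1.42, 95% interval -4.50 to 2.07) with 6 arrays. Without array B it was 0.68, or 1.60-fold (interval 0.21 to 1.15), with an unadjusted p of 0.00983 and an adjusted p of 0.453 in limma. Quantile normalization, which brings all arrays to the same distribution, left 0.17 without array B, and the groups then overlapped. Probe set 201044_x_at read 213 to 1414 on the scrambled and 497 to 1831 on the CKS1B shRNA arrays, with array B at 1169, above its scrambled mean of 718. Probe set 226578_s_at read 260 to 402.5 and 174 to 641. Of the 3 DUSP1 probe sets, 1 therefore read above its scrambled mean on array B and 2 below.

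**Figure D2:**
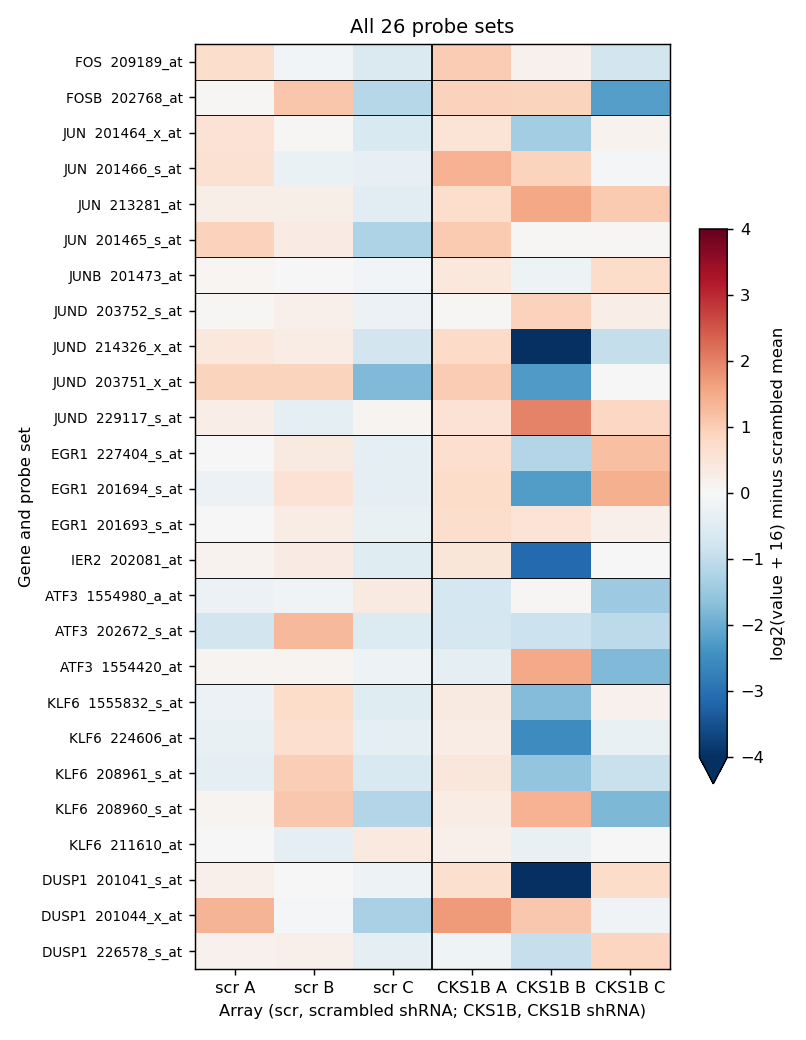
All 26 probe sets (rows) on the 6 arrays (columns), coloured by log2(value + 16) minus the mean of the 3 scrambled arrays, with red above and blue below and the scale ending at 4 units either way. The column of CKS1B shRNA array B holds both the darkest blue cells (DUSP1 201041_s_at and JUND 214326_x_at) and the darkest red (JUND 229117_s_at), and cells of a gene can have opposite colours there.

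The probe sets of a gene parted mainly on CKS1B shRNA array B. With 6 arrays the differences of 4 of the 6 members with several probe sets had both signs, and without array B those of 2 (JUND and KLF6) did. On array B 6 of 26 probe sets (23.1%) were below 0.2 of their scrambled mean, against 5.63% of all probe sets. Among those with a scrambled mean of at least 1000 it was 4 of 13 (30.8%, against 21.2%). The actin 3'/5' ratio of this array was 12.4, and its part in these values was not tested.

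In limma over 12663 genes, 0 of the 10 members passed an adjusted p of 0.05 with 6 arrays, where 0% of all genes were called, and their adjusted p ranged from 0.933 to 0.990. At an unadjusted p under 0.05 there were 0 of 10, against 2.95% of all genes. The median difference of the members was -0.18, against -0.08 for all genes. An exact two-sided permutation test of 3 arrays against 3, which cannot go below 0.1, gave p = 0.2 for JUND as the lowest of the 10 genes (n = 3 in each group). Without CKS1B shRNA array B 0 of 10 passed over 12612 genes, where 0.0476% were called, with adjusted p from 0.453 to 0.942. At an unadjusted p under 0.05 there were then 4 of 10, EGR1, DUSP1 and JUNB higher (5.03% of all genes) and ATF3 lower (4.61%). The median difference was 0.26, against -0.03 for all genes. CKS1B shRNA array C, with the actin 3'/5' ratio of 2.93, held the highest values of EGR1, JUNB and DUSP1 and the lowest of ATF3. Of the scrambled arrays, C was the lowest in 9 of 10 members and the highest in ATF3. The part of both arrays in these differences was not tested. The groups did not overlap, higher with the CKS1B shRNA, in 0 of 10 with 6 arrays (4.94% of all genes) and in 3 of 10 without array B (13.7%). The corresponding counts for lower were 0 of 10 (6.41%) and 1 of 10 (14.6%). By quantile normalization without array B the median difference of the members was 0.06.

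**Figure D3:**
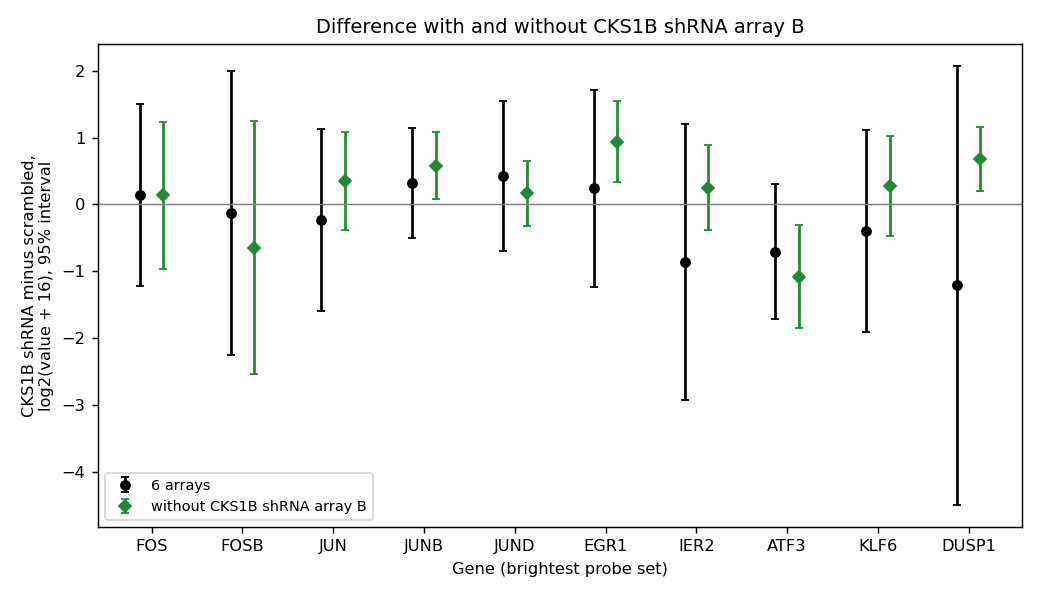
Difference between CKS1B shRNA and scrambled arrays on the log2(value + 16) scale for the brightest probe set of each gene, with 95% intervals from limma, over 6 arrays (black circles) and without CKS1B shRNA array B (green diamonds). With 6 arrays all 10 intervals include 0. Without array B those of JUNB, EGR1, ATF3 and DUSP1 do not, and no gene passed after adjustment.

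Over all 54613 probe sets, 0 of the 26 passed in limma with 6 arrays (0% of all called) or without array B (0.0201% called), and the lowest adjusted p of the 26 was 0.9999 and 0.710. At an unadjusted p under 0.05 there was 1 of 26 with 6 arrays, JUN 213281_at, against 1.77% of all probe sets, and 6 of 26 without array B, against 5.66%. The groups did not overlap, higher with the CKS1B shRNA, in 2 of 26 probe sets with 6 arrays (JUN 213281_at and JUND 229117_s_at, 7.69%, against 4.17% of all), and for lower in 0 of 26 (3.6% of all). Without array B it was 6 of 26 (23.1%, against 7.99%), and for lower 2 of 26, both of ATF3 (7.69%, against 13.7%).

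Scaling the arrays in other ways moved these counts. With 6 arrays centred on their medians, the groups did not overlap in 1 of 26 probe sets higher (JUND 229117_s_at, against 3.67% of all) and in 1 lower (ATF3 1554980_a_at, against 3.98%). With 6 arrays after quantile normalization it was 3 higher, of JUN, JUNB and JUND (5.21% of all), and the same ATF3 probe set lower (5.84%). Without array B median centring gave 6 higher (12.6% of all) and 1 lower (8.34%), and quantile normalization 5 higher (11.1%) and 1 lower (11.4%). The probe set that quantile normalization lost there was DUSP1 201041_s_at, and the 1 lower was ATF3 1554980_a_at in all 4 of these settings.

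On CKS1B shRNA array A 9 of 10 members were above the scrambled mean of their log2 values, all but ATF3, with a median of 0.52, where 46.4% of all genes were above. On array C it was 7 of 10 (48.9% of all genes), with a median of 0.16. On array B it was 4 of 10 (50.4% of all genes), with a median of -0.68. The 3 arrays of the CKS1B shRNA thus did not read alike in these genes.

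Several members varied widely between the scrambled arrays alone. FOSB spanned 4.99-fold among the 3, and 97.2% of all genes had a smaller SD of log2 values there. FOS spanned 2.42-fold, KLF6 2.36-fold and JUN 2.28-fold, each with a larger SD than at least 81.9% of genes. JUNB spanned only 1.13-fold, and 9.53% of genes varied less. DUSP1 and JUND spanned 1.31-fold and 1.34-fold, and EGR1, ATF3 and IER2 lay between 1.53-fold and 1.77-fold.

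Other genes of the pathway, listed by function with earlier results of these data known, gave 0 calls in limma over all genes, with or without array B. Of 11 further AP-1 partners 8 were tested, 5 higher and 3 lower with 6 arrays, with a median of 0.20. MAFG, the 1 gene of these whose groups did not overlap (4.94% of all genes), a small MAF protein that dimerises with FOS proteins among others, read 444, 613 and 1108 on the scrambled arrays and 1287, 1211 and 1640 with the CKS1B shRNA. All 3 CKS1B shRNA arrays were above the scrambled ones, and the difference was 1.01 (SE 0.39, adjusted p = 0.933) and 1.09 without array B. Its dim other probe set read 15.5 to 123.5 and 66.4 to 1146, overlapping. MAFF, another small MAF protein, read 359 to 1834 and 873 to 3086 (difference 1.35, SE 0.71), overlapping as well. ATF2, a CRE-binding partner of JUN, read 739 to 1056 and 322.5 to 986 (-0.54, and -0.07 without array B). Its other abundant probe set was highest on array B, at 1619. JDP2, an AP-1 repressor, read 149 to 707 and 117 to 380 (-0.51).

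Of 37 other immediate early genes 30 were tested, 17 higher and 13 lower, with a median of 0.06, and 1 had groups that did not overlap (against 4.94% of all genes higher and 6.41% lower), IER5L, named here after its values were seen, at 248 to 382 and 495 to 579.5. Without array B it was 6 of 29 higher (13.7% of all genes) and 1 lower (14.6%). ZFP36, which binds AU-rich elements and speeds the decay of early messenger RNAs, read 1070, 966 and 146 on the scrambled arrays and 1841, 4584 and 1020 with the CKS1B shRNA. Its groups overlapped through array C, and the difference was 1.89 (SE 0.83, adjusted p = 0.933) and 1.32 without array B. NFKBIZ, a nuclear regulator of NF-kB, read 539 to 1124 and 842 to 2585 (0.98). On the lower side, ID2, an inhibitor of basic helix-loop-helix factors, read 4492 to 8115 and 509 to 5092.5 (-1.42, and -0.39 without array B, which held the lowest value). The other ID2 probe set read 968, 1042 and 855 on the scrambled arrays and 809, 406 and 718 with the CKS1B shRNA, with all 3 of the latter below (-0.61, and -0.31 without array B, adjusted p = 0.9999 and 0.954 over probe sets). NR4A1, an orphan nuclear receptor, read 208 to 413 and 190 to 228 through the probe set used (-0.46, and -0.52 without array B). Its other probe sets were dimmer, with scrambled means of 78.5 and 37.8, and went the other way. They differed by 0.76 and 1.19, and by 0.04 and 0.45 without array B, which held their highest values. Their groups overlapped.

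**Figure D4:**
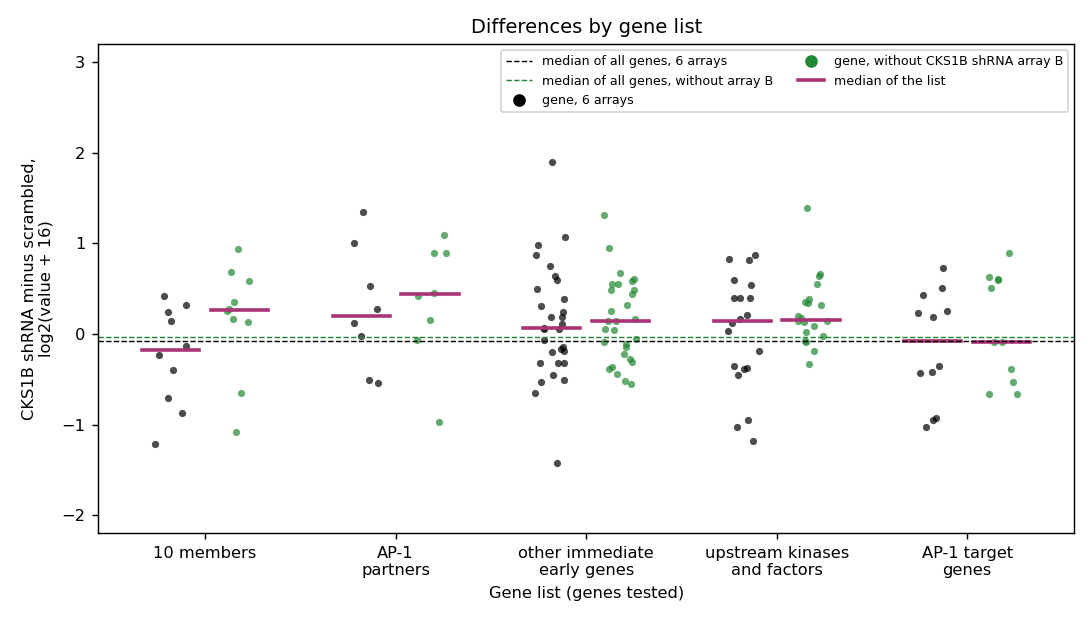
Differences between CKS1B shRNA and scrambled arrays on the log2(value + 16) scale for each gene tested, in 5 lists, with 6 arrays (black) and without CKS1B shRNA array B (green), list medians as purple bars and the medians of all genes as dashed lines. The members' median moves from -0.18 to 0.26 when array B is left out. That of the AP-1 target genes is -0.08 in both settings, over 12 genes with 6 arrays and 11 without array B.

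Upstream of the members, 20 of 24 kinases and SRF, ELK and CREB factors were tested, 12 higher and 8 lower with 6 arrays, with a median of 0.14 (0.16 without array B). CREM, a CRE-binding factor with activating and repressing forms, read 525, 638 and 531 on the scrambled arrays and 749, 1447 and 1052 with the CKS1B shRNA. Its groups did not overlap in this probe set (difference 0.88, SE 0.34, adjusted p = 0.933, and 0.64 without array B), and the other 5 CREM probe sets, all dimmer, overlapped. RPS6KA5, the kinase MSK1 that phosphorylates CREB and histone H3, read 490 to 531.5 and 598 to 1858 through the probe set used. Its difference was 0.82, and 0.31 without array B. Its other abundant probe set read 550 to 621 on the scrambled arrays and 243.5 on array B. MAP2K1 and MAP2K2, the kinases directly above ERK, read 2381 to 2866 and 347 to 2917 (-1.18), and 4936 to 6411 and 732 to 6708 (-1.03). RPS6KA4, the related kinase MSK2, was the remaining gene of the list whose groups did not overlap, at 456 to 568 and 603 to 1171 (0.54), and it was named after its values were seen. These 3 of 20 compare with 4.94% of all genes. MAP2K1 and MAP2K2 both had their lowest value on array B, and without it the differences were -0.33 and -0.09. Another abundant MAP2K2 probe set read 658 to 938 on the scrambled arrays and was highest on array B, at 1952.

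Of 18 genes known as AP-1 targets in other cells 12 were tested, 6 higher and 6 lower, with a median of -0.08, the same as that of all genes to 2 decimals. S100A10, an annexin partner, read 362, 451 and 559 on the scrambled arrays and 521, 909 and 920 with the CKS1B shRNA (0.73, SE 0.35, adjusted p = 0.933). HMOX1, the heme-degrading stress enzyme, read 1204 to 4786 and 2603 to 5993 (0.43). MMP13, a collagenase, read 1063 to 2502 and 262 to 1773 (-0.93, and -0.08 without array B). VIM, the intermediate filament vimentin, read 16195 to 19155 on the scrambled arrays and 20617, 1031 and 33319 with the CKS1B shRNA. Its difference went from -0.95 to 0.60 without array B, as that of DUSP1 changed sign.

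The genes whose pattern over the 6 arrays was nearest to FOS, by the root mean square difference of centred log2 values, were HLA-DQA1 (0.13), SLC29A1 (0.17) and RASSF1 (0.21). The median distance of all genes from FOS was 0.88, and the nearest other member, JUND, lay at 0.71, with 25.3% of genes nearer. HLA-DQA1 read 2060 to 3941 on the scrambled and 1690 to 5438 on the CKS1B shRNA arrays. Nearest to EGR1 were TAF12 (0.14), LSR (0.15) and TUBB2A (0.17), where the median was 0.90. Of the members KLF6 was nearest to EGR1, at 0.43, with 5.34% of genes nearer. TUBB2A read 2341 to 3637 on the scrambled arrays and 3562, 1149 and 4928 with the CKS1B shRNA, low on array B as EGR1 was. With 12663 genes and 6 arrays, of which 1 stands apart, such distances describe these arrays only.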

How the data were processed

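The authors deposited 1 linear intensity per probe set and array, summarised by MAS5 according to the submitters' processing notes (version and parameters: not given in the sources used here). Its trimmed mean was 500 on every array, which is the scaling between arrays. The members and gene lists were chosen with earlier results of these data known.

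Of 54675 probe sets, 62 controls were left out, 41091 had 1 gene, 1801 several and 11721 no name here, and symbols were updated by Entrez identifier (41037 matched RefSeq, GRCh38.p14). Values became log2(value + 16). Per gene the brightest probe set was kept, and genes under the median log2 value of all probe sets (7.34) were left out, which kept 12663 genes. The test was limma 3.58.1 under R 4.3.3 (lmFit and trended eBayes, Benjamini-Hochberg adjustment, threshold 0.05), over genes and over all 54613 probe sets without a filter. The fit was tested on simulated data. Alternatives were other pseudocounts, filters, scalings, probe set rules, array weights, a replicate block and arrays left out. Where a group keeps 2 arrays, the spread is pooled over both groups. The named genes were all members with every probe set, CKS1B, the 2 genes of smallest p per direction in each pathway list, and the 3 nearest to FOS and to EGR1. HLA-DQA1 and TUBB2A are given with values as examples of these. The markers IRF4, SLAMF7, MS4A1, MZB1, EPCAM, PRDM1, SDC1 and KRT8, and IER5L and RPS6KA4, lie outside this rule and were named after their values were seen. Figures used Python 3.11.15 and matplotlib 3.10.9.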

Additional observations from a re-analysis of the deposited data

How the results depend on the processing

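No member passed the threshold under any of the 18 alternatives, and JUNB (higher) and ATF3 (lower) kept their direction in all 18. Over all genes 0 passed in the comparison as reported, 4 with array weights, 1 without both arrays of letter B, and 0 to 6 when 1 array was left out. Over probe sets the counts were 0, 86, 16 and 0 to 11. After seeing the data, quantile normalization and median centring without CKS1B shRNA array B were added, which gave 2 and 27 genes, and 2 and 1 probe sets. The CKS1B difference passed with array weights (-3.80), without both arrays of letter B (-3.59) and without CKS1B shRNA array B by median centring (-3.43) or quantile normalization (-3.68), and ranged from -4.41 to -3.63 with 1 array left out. The letter as a replicate block left 0 genes and a members' median of -0.18. Same-letter arrays deviated from their group means with correlations of 0.402 (A), -0.0809 (B) and -0.0796 (C). The CKS1B shRNA group mean includes array B, so these values cannot decide whether the letters are pairs. The 2 arrays of letter A correlated best with each other (0.958), but not every array did so with its own letter. The labels state no pairing, and the main test used none.

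The members above 0 were 4 as reported, 7 with array weights, 8 without both arrays of letter B, 8 by median centring without CKS1B shRNA array B and 3 to 8 with 1 array left out. Their median was -0.18 as reported, 0.104 with array weights, 0.0194 by quantile normalization and -0.42 by median centring with 6 arrays, 0.40 without both arrays of letter B, 0.46 by median centring without CKS1B shRNA array B and -0.64 to 0.26 with 1 array left out (lowest without CKS1B shRNA array A, highest without array B). Median centring moved the median of all genes by -0.23 with 6 arrays, and by 0.24 without array B.

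Signs turned as follows, and the cause was not tested. With array weights JUN gave 0.14, IER2 0.0021 and DUSP1 0.42. With the probe sets of a gene averaged JUN gave 0.50 and JUND -0.0660. FOS gave -0.0920 by median centring and FOSB 0.21 by quantile normalization. Without both arrays of letter B JUN gave 0.37, IER2 0.42, KLF6 0.64 and DUSP1 0.67. By median centring without CKS1B shRNA array B JUN gave 0.55, IER2 0.45, KLF6 0.47 and DUSP1 0.88. By quantile normalization without it FOS gave -0.0277, JUN 0.22, JUND -0.14, IER2 0.0587, KLF6 0.0609 and DUSP1 0.17. With 1 array left out the ranges were -0.29 to 0.58 for FOS, -0.71 to 0.91 for FOSB, -0.62 to 0.35 for JUN, -0.25 to 0.94 for EGR1 (lowest without CKS1B shRNA array C), -1.55 to 0.25 for IER2, -0.78 to 0.27 for KLF6 and -2.19 to 0.68 for DUSP1.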
